A study of Rattus norvegicus with 12 samples.

Results

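Genes of interleukin 6 family signaling were examined in kidneys of 2 rat models of renal fibrosis. The 10 genes were found by symbol in both deposited expression tables, where each was listed once. They were 10 of the 22132 entries for the control and adenine groups and 10 of the 32623 entries for the sham and UUO groups. Il6, Il11, Lif, Osm and Clcf1 encode ligands, Il6r, Il6st and Osmr encode receptor subunits, Stat3 encodes a transcription factor and Socs3 encodes an inhibitor of the pathway.

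RNA was sequenced from 12 kidney samples of wild-type male SD rats, bought at 8 weeks of age, with 3 rats drawn at random from each of 4 groups. The adenine group received a daily gavage of 220 mg/kg adenine over 3 weeks, and the control group had saline for as long. In the UUO group (unilateral ureteral obstruction) the left ureter was tied off under isoflurane, and in the sham group the operation left the ureter open. Surgery was followed by 2 weeks on standard chow in UUO and sham rats alike. Each sample was 1 rat, and which kidney was sampled is not given in the sources used here. RNA came from bulk kidney tissue, so fewer cells of a type and less RNA per cell cannot be told apart.

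Cytokines of the interleukin 6 family signal through receptor complexes that share gp130, the product of Il6st. Binding activates Janus kinases, which phosphorylate STAT3, and STAT3 then enters the nucleus and switches on target genes. One of these targets is Socs3, whose product binds gp130 and its kinases and dampens the signal. In the kidney the family is known from studies of inflammation, tubular injury and fibrosis.

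Expression was deposited as FPKM, fragments scaled by transcript length and library size, so levels of different genes are given per length. The number of reads is unknown. FPKM summed to 564972 to 582725 in control, 468389 to 487770 in adenine, 619664 to 630244 in sham and 528811 to 539011 in UUO samples. Each table was fitted alone with limma, a linear model per gene with variances moderated across genes, on log2(FPKM + 0.1). An entry was tested where at least 3 of 6 samples reached an FPKM of 0.5. Log2 fold changes and their standard errors (SE) come from this fit, and p was adjusted by Benjamini-Hochberg over the 15029 tested entries of the adenine table and the 15043 of the UUO table. A differentially expressed gene (DEG) had an adjusted p under 0.05 and a log2 fold change of at least 2 in either direction. Over all tested entries the median log2 fold change was 0.30 after adenine and 0.62 after UUO, so the values below lie on top of this shift. Median-of-ratios scaling, which sets the typical gene to no change, brought these medians to 0.014 and 0.032. It changed the numbers of upregulated and downregulated DEGs over all entries from 1604 and 756 to 1314 and 957 in the adenine model, and from 1980 and 633 to 1249 and 954 in the UUO model.

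The promoters of 3 genes are shown because their sequences held matches to motifs of inflammatory transcription factors. They are 250 bases upstream of the annotated start, 5′ to 3′ on the strand of the gene, from RefSeq on the rat assembly GRCr8, with motif matches in capitals. The build of the expression tables is not given in the sources used here, so these positions belong to GRCr8 alone. Of the 10 genes, 7 had a promoter in the RefSeq set, and Lif, Osm and Clcf1 are named only.
Il6 (chr4:5894576-5894825, minus strand): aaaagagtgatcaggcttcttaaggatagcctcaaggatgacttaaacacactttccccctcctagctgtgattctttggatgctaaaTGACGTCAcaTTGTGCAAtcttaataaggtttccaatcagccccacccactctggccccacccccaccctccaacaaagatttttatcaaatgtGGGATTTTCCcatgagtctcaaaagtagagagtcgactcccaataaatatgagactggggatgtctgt
Il11 (chr1:78098372-78098621, plus strand): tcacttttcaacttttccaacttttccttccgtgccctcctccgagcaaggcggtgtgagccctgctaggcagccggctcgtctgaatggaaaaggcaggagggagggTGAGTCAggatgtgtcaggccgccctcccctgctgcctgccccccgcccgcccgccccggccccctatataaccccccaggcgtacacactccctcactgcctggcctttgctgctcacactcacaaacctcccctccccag
Osmr (chr2:57688562-57688811, minus strand): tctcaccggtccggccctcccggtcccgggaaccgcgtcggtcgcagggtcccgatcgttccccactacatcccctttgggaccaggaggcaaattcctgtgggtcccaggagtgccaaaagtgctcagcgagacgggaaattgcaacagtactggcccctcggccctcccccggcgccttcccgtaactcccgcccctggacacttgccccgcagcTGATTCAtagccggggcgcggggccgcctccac

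The Il6 promoter held 3 of the motifs searched, each on either strand. The cyclic AMP response element TGACGTCA lay 162 to 155 bases before the start, the C/EBP motif TTGNNCAA lay 152 to 145 bases before it as TTGTGCAA, and the NF-kB motif (GGGA, any base, then TTTCC) lay 68 to 59 bases before it as GGGATTTTCC. Over all 33469 promoter windows of the same length, these motifs occurred in 1.59%, 5.25% and 0.314%. The AP-1 motif TGANTCA, found in 6.34% of all windows, lay 142 to 136 bases before the start of Il11 as TGAGTCA and 33 to 27 bases before that of Osmr as TGATTCA. The STAT motif TTCNNNGAA was in 7.67% of all windows and in 0 of the 7 windows examined here, which says only that these letters are not in these 250 bases. A motif match is a description of the letters and not a bound site.

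All 10 genes were higher in fibrotic kidneys. In the adenine model every one of the 3 adenine samples lay above every control sample for 10 of 10 genes, a pattern found for 45% of all tested entries. In the UUO model the same was seen for 10 of 10 genes against sham, beside 60% of all tested entries. Of 9 genes tested in the adenine model 7 were upregulated DEGs (Il6, Lif, Osm, Il6r, Il6st, Osmr and Socs3), where 10.7% of all tested entries were. Of 8 genes tested in the UUO model 6 were upregulated DEGs (Il11, Lif, Clcf1, Il6r, Osmr and Socs3), where 13.2% of all tested entries were. Il6, Lif and Osm after adenine and Lif and Il11 after UUO passed the minimum FPKM only through the fibrotic group, so they had to differ to be tested at all.

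**Figure D1:**
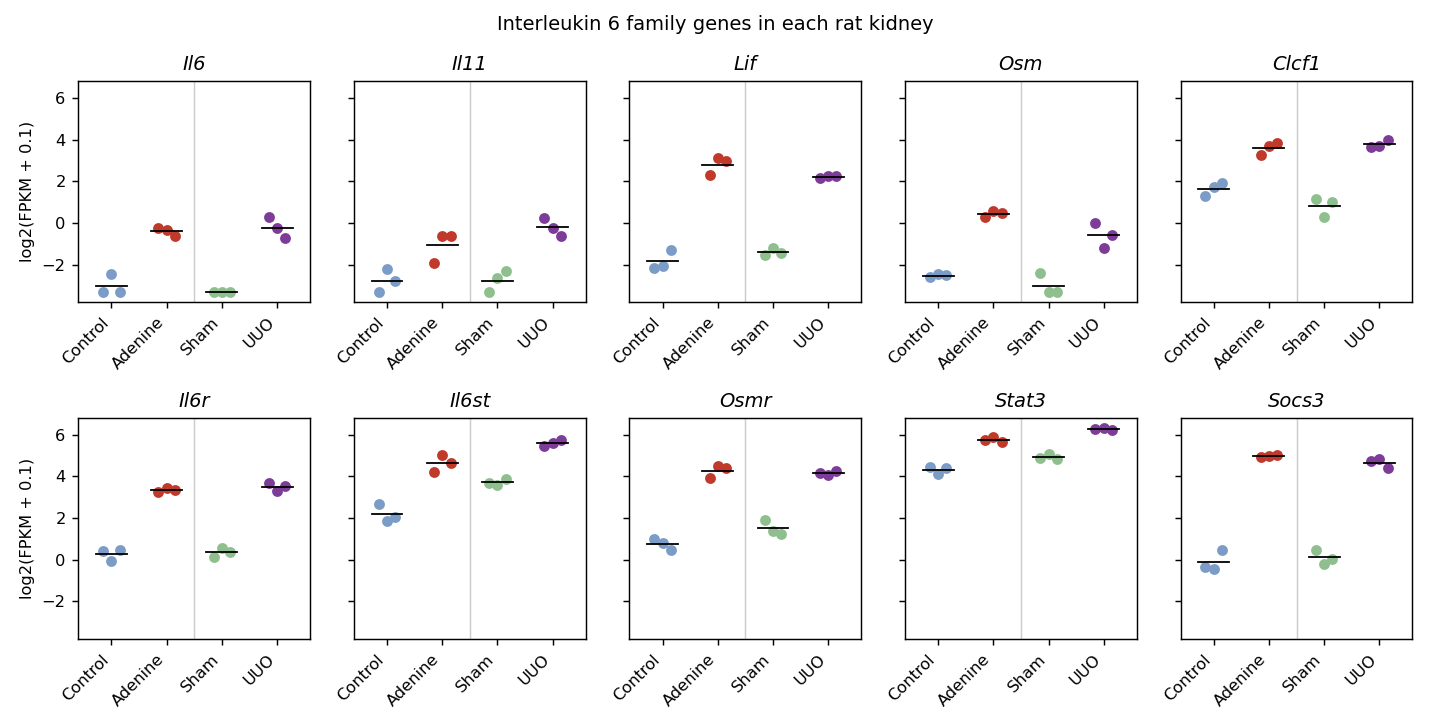
Each panel plots 1 gene of the interleukin 6 family as log2(FPKM + 0.1), with a point per rat and a bar at the group mean. A grey line parts the control and adenine table from the sham and UUO table. In all 10 panels the 3 adenine points lie above the 3 control points and the 3 UUO points above the 3 sham points, with Stat3 the highest gene in each group.

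Among the 5 ligand genes chosen, Lif had in each model the largest log2 fold change of those tested. In the UUO model this rank depended on the added 0.1. With a pseudocount of 1 in its place Clcf1 was above Lif (2.45 against 2.12). With a pseudocount of 0.01 Il11 was above Lif (4.19 against 3.98). In the adenine model Lif stayed first of those tested with either pseudocount. Lif encodes leukemia inhibitory factor, which binds the LIF receptor together with gp130. FPKM of Lif was 0.128, 0.141 and 0.301 in controls and 4.80, 8.65 and 7.71 in the adenine samples. All adenine samples were far above the controls, and mean FPKM was 37.1 times the control mean, a log2 fold change of 4.63 (adjusted p = 8.85e-05, SE 0.34, limma). In the sham samples Lif stood at 0.250, 0.332 and 0.268, and in the UUO samples at 4.32, 4.72 and 4.74. The UUO samples lay close together, and the log2 fold change was 3.62 (adjusted p = 2.34e-05, SE 0.20, limma). Lif exceeded 98.9% of the tested entries in log2 fold change after adenine and 97.5% after UUO.

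Il6, the gene of interleukin 6 itself, stayed at low levels. It was listed at 0, 0.0840 and 0 FPKM in controls and at 0.740, 0.687 and 0.557 in the adenine samples. No adenine sample reached 1 FPKM, but the groups did not overlap, and the log2 fold change was 2.63 (adjusted p = 0.00135, SE 0.39, limma). This value rests on the added 0.1 and was 0.69 with a pseudocount of 1, below the threshold of a DEG. In the sham samples Il6 was listed at 0.0001, the lowest value of that table, in 3 of 3 rats, and in the UUO samples at 1.12, 0.752 and 0.4996. The last of these lay just under 0.5, so Il6 missed the minimum FPKM and was not tested in the UUO model. Its mean log2(FPKM + 0.1) differed by 3.09 between the groups, with a two-sided exact permutation p of 0.1, the smallest that 3 samples against 3 can give.

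Il11, whose product signals through its own receptor and gp130, was likewise near the lowest values in undiseased kidneys. Control samples were listed at 0, 0.120 and 0.0433 FPKM and adenine samples at 0.164, 0.557 and 0.543. The first adenine sample was only a little above the highest control, and Il11 did not reach the minimum FPKM in this table. The groups differed by 1.72 in mean log2(FPKM + 0.1), with an exact permutation p of 0.1. Sham samples stood at 0.0001, 0.0580 and 0.101 and UUO samples at 1.08, 0.745 and 0.556. All UUO samples were above all sham samples, and the log2 fold change was 2.56 (adjusted p = 0.00165, SE 0.43, limma). This call was lost with a pseudocount of 1, where the log2 fold change was 0.76, and with quantile normalization, where it was 1.97.

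Osm encodes oncostatin M, a cytokine known from leukocytes. FPKM of Osm was 0.0638, 0.0823 and 0.0753 in controls and 1.12, 1.37 and 1.29 in the adenine samples. The replicates of each group were close, and the log2 fold change was 2.97 (adjusted p = 0.000192, SE 0.27, limma), or 1.07 with a pseudocount of 1. In the other model Osm was listed at 0.0886, 0.0001 and 0.0001 in shams and at 0.886, 0.335 and 0.582 in the UUO samples. Only 2 UUO samples reached the minimum FPKM, so no limma test was made. The difference in mean log2(FPKM + 0.1) was 2.42, again with an exact permutation p of 0.1. When all entries were fitted without the minimum, Il6 and Osm both passed the thresholds of a DEG in the UUO model, at these same differences.

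Clcf1, the gene of cardiotrophin-like cytokine factor 1, had the highest FPKM of the 5 ligand genes chosen in undiseased kidneys. It measured 2.40, 3.25 and 3.68 FPKM in controls and 9.59, 13.0 and 14.3 in the adenine samples. Its log2 fold change of 1.95 (adjusted p = 0.000466, SE 0.22, limma) was just below the fold threshold. It passed with FPKM rescaled to the same sum, at 2.22, and without the third control or the first adenine sample, at 2.08 and 2.12. Sham samples had 2.13, 1.14 and 1.90 FPKM and UUO samples 12.5, 12.8 and 15.8. The log2 fold change there was 2.96 (adjusted p = 8.45e-05, SE 0.24, limma), and Clcf1 was an upregulated DEG under all 16 alternatives tried.

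Receptor subunit genes were higher as well. Il6r encodes the subunit that binds interleukin 6, in the membrane or shed from it. FPKM of Il6r was 1.26, 0.849 and 1.27 in controls and 9.46, 10.8 and 10.2 in the adenine samples. It was 0.999, 1.38 and 1.19 in shams and 12.9, 9.65 and 11.7 in the UUO samples. All samples of both models were several times above their controls. The log2 fold change was 3.08 (adjusted p = 5.80e-05, SE 0.19, limma) after adenine and 3.16 (adjusted p = 2.61e-05, SE 0.18, limma) after UUO.

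Osmr encodes the oncostatin M receptor subunit, which pairs with gp130. Control samples had 1.92, 1.66 and 1.28 FPKM of Osmr and adenine samples 15.1, 22.6 and 20.9. Adenine kidneys thus had 12.0 times the mean level of control kidneys, a log2 fold change of 3.51 (adjusted p = 5.49e-05, SE 0.22, limma). Sham samples had 3.60, 2.53 and 2.25 and UUO samples 17.9, 16.7 and 19.0. The groups were again apart, with 6.40 times the mean of sham and a log2 fold change of 2.66 (adjusted p = 4.80e-05, SE 0.19, limma). With quantile normalization the log2 fold change in the UUO model was 1.98, just below the threshold.

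Il6st encodes gp130, the signal-transducing subunit that all of these ligands use. It measured 6.33, 3.51 and 4.08 FPKM in controls and 18.7, 32.3 and 25.1 in the adenine samples. The adenine samples were spread widely, and the lowest of them was still above every control. The log2 fold change was 2.44 (adjusted p = 0.000475, SE 0.28, limma). Sham samples had 12.9, 11.8 and 14.7 and UUO samples 44.1, 48.2 and 54.4. The log2 fold change of 1.89 (adjusted p = 3.54e-05, SE 0.12, limma) had a low adjusted p and did not reach the fold threshold, except with FPKM rescaled to the same sum, where it was 2.11.

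Stat3 encodes the transcription factor on which the family converges and had the smallest change of the tested genes in both models. FPKM of Stat3 was 21.6, 17.5 and 21.3 in controls and 54.4, 58.7 and 50.9 in the adenine samples, a log2 fold change of 1.44 (adjusted p = 0.000140, SE 0.12, limma). It was 29.3, 33.3 and 28.5 in shams and 78.1, 80.9 and 73.9 in the UUO samples, a log2 fold change of 1.35 (adjusted p = 3.97e-05, SE 0.09, limma). The groups did not overlap in either model, and Stat3 was no DEG in either. With median-of-ratios scaling the log2 fold change was 1.15 after adenine and 0.75 after UUO. Transcript levels do not measure phosphorylation of STAT3.

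Socs3 had the largest log2 fold change of the tested family genes in both models. Control samples had 0.683, 0.633 and 1.30 FPKM and adenine samples 30.8, 31.4 and 32.3. The adenine samples were within a narrow range at 36.2 times the control mean, and the log2 fold change was 5.09 (adjusted p = 3.25e-05, SE 0.26, limma). Sham samples had 1.31, 0.782 and 0.929 and UUO samples 26.3, 28.9 and 21.4, at 25.4 times the sham mean with a log2 fold change of 4.55 (adjusted p = 1.44e-05, SE 0.21, limma). Ranked by log2 fold change among all tested entries, Socs3 held place 114 after adenine and place 138 after UUO. Socs3, Lif and Il6r were upregulated DEGs in both models under all 16 alternatives, as were Il6st and Osmr in the adenine model.

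**Figure D2:**
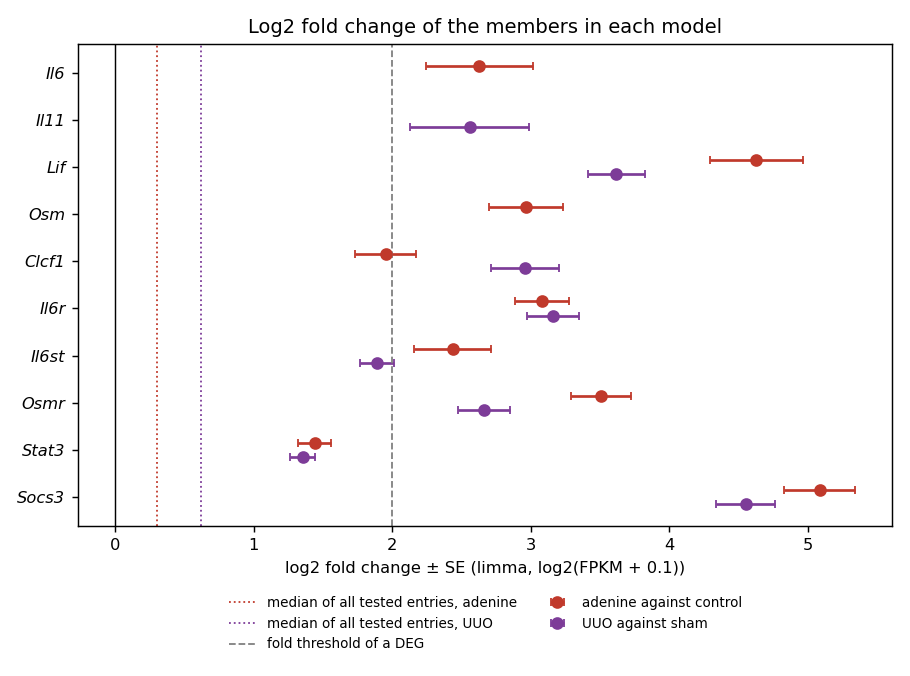
Log2 fold changes with their standard errors from limma (x axis) are plotted for each gene of the family in the adenine and UUO models, with dotted lines at the median of all tested entries (0.30 and 0.62) and a dashed line at the fold threshold of 2. Socs3 lies farthest right in both models and Stat3 farthest left, and genes below the minimum FPKM have no point in that model.

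The order of levels within a group differed between fibrotic and undiseased kidneys. Stat3 was the highest gene in all 4 groups and did not overlap with the next gene. In control kidneys Il6st followed with a mean of 4.64 FPKM and overlapped with Clcf1 at 3.11, then came Osmr, Il6r and Socs3, of which the last pair overlapped. In adenine kidneys Socs3 held the second place at 31.5 ± 0.759 FPKM (SD, n = 3), and its range overlapped with that of Il6st at 25.4 ± 6.81. In sham kidneys Socs3 was in the sixth place at 1.01 ± 0.270 and overlapped with Il6r, and in UUO kidneys it was in the third place at 25.5 ± 3.82, apart from its neighbours Il6st and Osmr. Osmr was above Clcf1 without overlap in all 4 groups except control kidneys, where Clcf1 was above Osmr. Clcf1 and Il6r overlapped in adenine, sham and UUO kidneys. Lif, Osm, Il6 and Il11 held the last 4 places in each group, with Lif the highest of them, and neighbours in the order Il11, Il6 and Osm overlapped in UUO kidneys.

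The effects in the 2 models were compared for each gene, using the log2 fold change and standard error from each fit, since the models share no samples. Over all 13486 symbols tested in both, 2.88% differed with an adjusted p under 0.05 and a difference of at least 2, and 0 of the 7 family genes tested in both models did. Without the fold threshold 27% of all symbols and 2 of the 7 genes had an adjusted p under 0.05. The rise of Clcf1 was larger in the UUO model by 1.00 on the log2 scale (95% interval 0.29 to 1.72, adjusted p from the limma fits = 0.0384). For Osmr the UUO minus adenine difference was -0.85 (95% interval -1.46 to -0.23, adjusted p from the limma fits = 0.0432). Neither was stable, as the adjusted p of the limma fits was not under 0.05 in 12 of 21 alternatives for Clcf1 (range 0.0190 to 0.162) and in 13 of 21 for Osmr (range 0.0123 to 0.106). With median-of-ratios scaling the difference of Clcf1 was 0.71 (limma adjusted p = 0.137) and that of Osmr -1.15 (limma adjusted p = 0.0137). With a pseudocount of 1 that of Osmr was -0.63 (limma adjusted p = 0.0602). The difference for Lif was -1.01 (95% interval -1.86 to -0.17, limma adjusted p = 0.0708), and it passed in 5 of 21 alternatives, 1 of them median-of-ratios scaling at -1.29 (limma adjusted p = 0.0368). Il6r differed by 0.08 (95% interval -0.50 to 0.66), Stat3 by -0.09 (-0.41 to 0.24), Socs3 by -0.54 (-1.26 to 0.18) and Il6st by -0.55 (-1.20 to 0.11), and none of these passed. For the genes below the minimum FPKM in 1 table, a fit without the minimum gave differences of 0.46 for Il6, 0.84 for Il11 and -0.54 for Osm, none of them called.

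Other genes of the pathway were counted from 6 lists of 61 genes. In the adenine model 54 were tested, and 14 were upregulated and 2 downregulated DEGs, where 10.7% and 5.03% of all tested entries were, with a median log2 fold change of 0.87 beside 0.30 for all entries. In the UUO model 53 were tested, with 16 upregulated and 1 downregulated DEGs beside 13.2% and 4.21% of all tested entries, and a median of 1.07 beside 0.62. Median-of-ratios scaling gave 11 upregulated and 3 downregulated for adenine, and 11 and 1 for UUO. Il31, Mcl1 and Serpina3n were not analysed here.

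**Figure D3:**
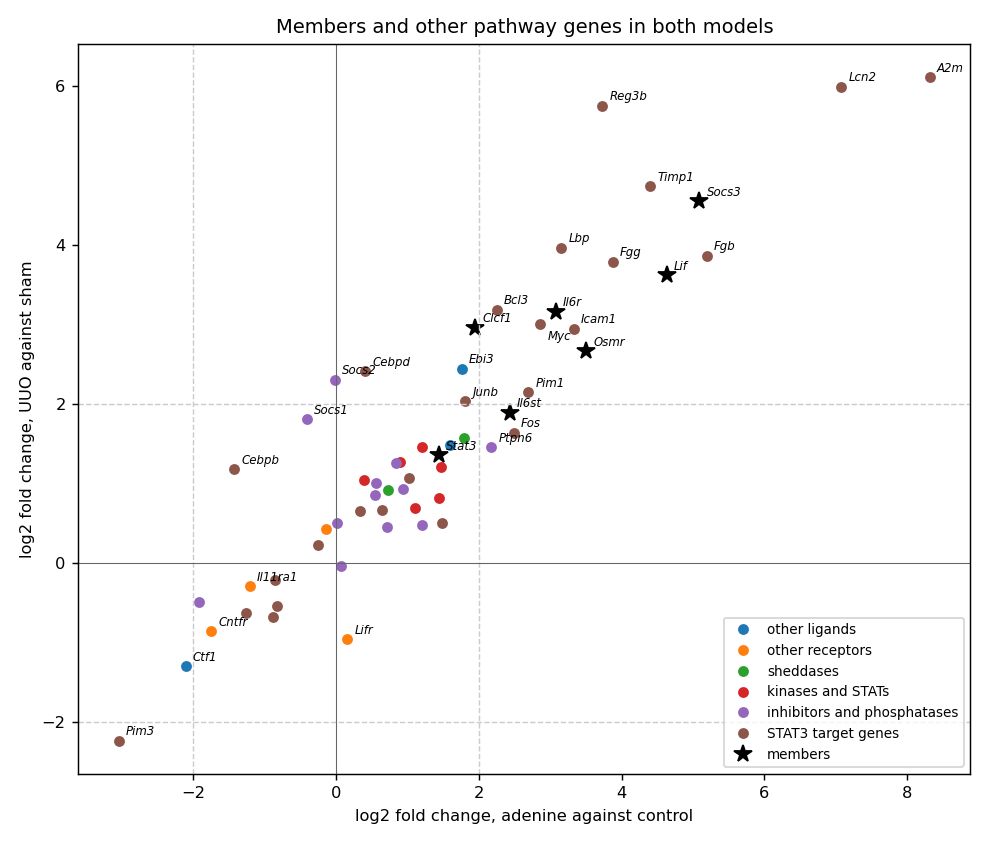
Points are genes tested in both models, apart from any not reported here, each with its log2 fold change in the adenine model on the x axis and in the UUO model on the y axis, coloured by list, and stars for the interleukin 6 family genes. Dashed lines mark the fold threshold of 2 in either direction. All stars lie in the upper right part, while Ctf1 (-2.10 and -1.30), Cntfr (-1.74 and -0.86) and Pim3 (-3.04 and -2.24) lie in the lower left.

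Among the other ligand genes, Ctf1, the gene of cardiotrophin 1, was lower in both models. FPKM of Ctf1 was 14.9, 19.7 and 22.8 in controls and 4.12, 4.36 and 4.49 in the adenine samples, a log2 fold change of -2.10 (adjusted p = 0.000135, SE 0.17, limma). The call of a DEG was lost with FPKM rescaled to the same sum (-1.84), with a pseudocount of 1 (-1.90) and without the third control sample (-1.97). Sham samples had 15.8, 15.6 and 15.8 and UUO samples 5.65, 7.09 and 6.28, all below sham, with a log2 fold change of -1.30 (adjusted p = 0.000108, SE 0.12, limma). In undiseased kidneys Ctf1 was thus at a higher level per length than any of the 5 ligand genes of the family examined. Ebi3, which encodes a subunit shared by interleukins 27 and 35, had a log2 fold change of 1.76 (adjusted p = 0.00339, SE 0.32, limma) after adenine and was an upregulated DEG after UUO at 2.45 (adjusted p = 0.00318, SE 0.47, limma). The latter call was lost with median-of-ratios scaling (1.90), quantile normalization (1.62) and a pseudocount of 1 (1.48).

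Of the 4 other receptor subunit genes tested, 0 were DEGs and 0 were higher at an adjusted p under 0.05 by limma in either model, while 2 after adenine and 1 after UUO were lower. By the same rule 19.9% and 14.4% of all tested entries were lower, and whether the list differs from other genes was not tested. Il11ra1, which encodes the interleukin 11 receptor, had 36.3, 27.1 and 30.2 FPKM in controls and 15.5, 14.4 and 10.8 in the adenine samples. All adenine samples were lower, with a log2 fold change of -1.20 (adjusted p = 0.00140, SE 0.18, limma). In the UUO model Il11ra1 was at 22.9 ± 4.51 FPKM (SD, n = 3) in sham and 18.5 ± 2.38 in UUO samples, where the groups overlapped and the log2 fold change was -0.29 (adjusted p = 0.173, SE 0.18, limma). Cntfr, the gene of the ciliary neurotrophic factor receptor, had a log2 fold change of -1.74 (adjusted p = 0.0119, SE 0.43, limma) after adenine and -0.86 (adjusted p = 0.0291, SE 0.28, limma) after UUO. Its FPKM was 1.57, 1.17 and 1.65 in controls and 0.690, 0.379 and 0.162 in the adenine samples, of which only 1 reached the minimum FPKM. Over the alternatives the log2 fold change of Cntfr ranged from -2.25 to -0.82 after adenine and from -1.71 to -0.47 after UUO.

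Lifr, which encodes the receptor subunit for leukemia inhibitory factor, varied between rats. It measured 5.08, 1.88 and 4.62 FPKM in controls and 3.06, 4.41 and 4.60 in the adenine samples. The groups overlapped, and the log2 fold change of 0.16 (adjusted p = 0.749, SE 0.39, limma) changed sign with median-of-ratios scaling (-0.13), with quantile normalization (-0.32) and without the second control sample (-0.28). Sham samples had 14.5, 6.39 and 8.12 and UUO samples 3.03, 4.77 and 6.78, with a log2 fold change of -0.96 (adjusted p = 0.0577, SE 0.38, limma). The first sham sample was well above the other sham samples.

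Ratios within a kidney do not change when a sample is scaled by a single factor, though quantile normalization can change them. The ratio of Osmr to Lifr, the alternative partners of gp130, was 0.514 ± 0.326 (SD, n = 3) in control and 4.87 ± 0.300 in adenine samples, and 0.307 ± 0.0783 in sham and 4.07 ± 1.63 in UUO samples. Lifr was therefore above Osmr in every undiseased kidney and Osmr above Lifr in every fibrotic one. Il11ra1 to Il6st was 6.95 ± 1.06 in control against 0.568 ± 0.225 in adenine samples, and 1.76 ± 0.442 in sham against 0.381 ± 0.0625 in UUO samples. The ratio of Il6r to Il6st was 0.251 ± 0.0569 in control against 0.414 ± 0.0865 in adenine samples, and 0.0917 ± 0.0221 in sham against 0.236 ± 0.0498 in UUO samples. Osmr to Il6st was 0.364 ± 0.0955 against 0.779 ± 0.0706 and 0.216 ± 0.0632 against 0.368 ± 0.0337. Socs3 to Stat3 was 0.0429 ± 0.0157 against 0.579 ± 0.0505 after adenine and 0.0335 ± 0.0106 against 0.328 ± 0.0350 after UUO. The groups were apart for each of these ratios, with a two-sided exact permutation p of 0.1, the smallest possible.

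**Figure D4:**
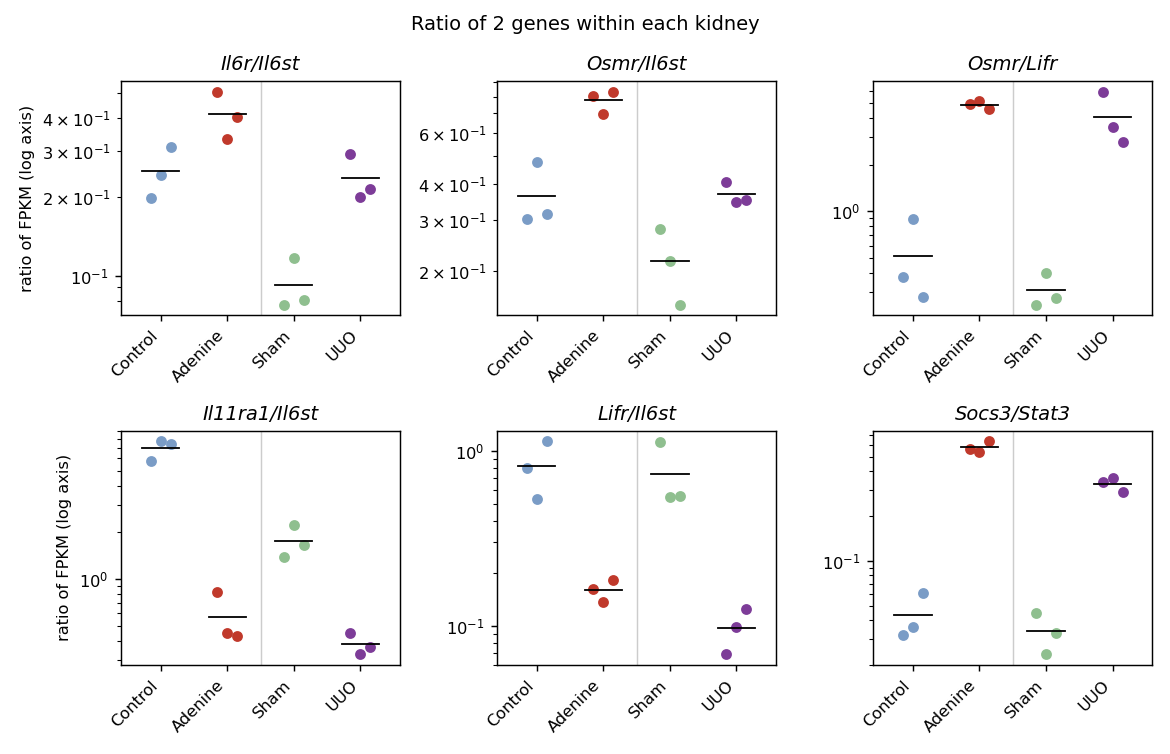
Each panel plots the ratio of the FPKM of 2 genes in each rat on a log axis, with a bar at the group mean. Osmr/Lifr and Socs3/Stat3 are higher in all adenine and UUO samples than in their controls, and Il11ra1/Il6st and Lifr/Il6st are lower, without overlap.

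The kinase and STAT genes of the pathway were moderately higher. Of 7 tested in the adenine model 6 were higher at an adjusted p under 0.05, as were 6 of 6 in the UUO model, and 0 of either were DEGs, where 39.6% and 56.1% of all tested entries were higher by the same rule. Jak1, Jak2 and Tyk2 encode the kinases bound to gp130. Jak1 was at 16.5 ± 1.45 FPKM (SD, n = 3) in control and 46.0 ± 2.04 in adenine samples, a log2 fold change of 1.48 (adjusted p = 7.76e-05, SE 0.10, limma), and its log2 fold change in the UUO model was 1.20. For Jak2 the values were 1.20 and 1.46, and for Tyk2 0.90 and 1.26. Over all tested entries the median was 0.30 after adenine and 0.62 after UUO. The lowest values over the alternatives were 1.18 and 0.60 for Jak1, 0.87 and 0.81 for Jak2, and 0.61 and 0.64 for Tyk2. Both tested sheddase genes, Adam10 and Adam17, whose products release the interleukin 6 receptor from the membrane, were also higher in both models below the fold threshold. Adam17, named after its values were seen, had log2 fold changes of 1.80 and 1.57.

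Among 12 genes of other inhibitors and phosphatases 1 was an upregulated DEG in each model, Ptpn6 after adenine and Socs2 after UUO, a share no higher than the 10.7% and 13.2% of all tested entries. Ptpn6, the gene of the phosphatase SHP-1 of blood cells, had in the adenine model a log2 fold change of 2.18 (adjusted p = 5.83e-05, SE 0.14, limma), or 1.89 with median-of-ratios scaling, and reached 1.46 in the UUO model. Socs2 had 2.26, 2.48 and 2.51 FPKM in controls and 2.17, 2.65 and 2.38 in the adenine samples, which overlapped, and the log2 fold change was -0.01 (adjusted p = 0.954, SE 0.17, limma). In the sham samples Socs2 had 1.40, 1.95 and 1.56 and in the UUO samples 7.25, 8.35 and 9.89, all far above sham, with a log2 fold change of 2.31 (adjusted p = 8.45e-05, SE 0.19, limma). Socs2 was no DEG with median-of-ratios scaling (1.73), quantile normalization (1.53) or a pseudocount of 1 (1.84). Cish, named after its values were seen, is a further gene of the same inhibitor family and was lower in both models, with log2 fold changes of -1.92 (limma adjusted p = 0.000167) and -0.50 (limma adjusted p = 0.00378).

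The list of known STAT3 target genes held 25 tested genes in each model. In the adenine model 12 were upregulated DEGs and 1 was downregulated, with a median log2 fold change of 1.82 beside 0.30 for all entries. In the UUO model 13 were upregulated and 1 downregulated, with a median of 2.04 beside 0.62. Over all tested entries 10.7% and 13.2% were upregulated, and 5.03% and 4.21% downregulated. The targets were not of 1 direction, since without the fold threshold 15 were higher and 6 lower after adenine and 16 were higher and 4 lower after UUO. Among the lower ones, named after their values were seen, Vegfa, the gene of a vascular growth factor, had log2 fold changes of -1.25 and -0.63, and Ccnd1, the gene of cyclin D1, -0.83 and -0.55. Of the 25 genes 4 in the adenine and 3 in the UUO model reached the minimum FPKM only through the fibrotic samples. Many of these genes also answer to other transcription factors. Lcn2, which encodes the tubular injury marker lipocalin 2, had 3.82 ± 2.13 FPKM (SD, n = 3) in control and 488.6 ± 78.1 in adenine samples, and 6.12 ± 2.10 in sham and 383 ± 57.8 in UUO samples. Its log2 fold changes were 7.08 (adjusted p = 2.96e-05, SE 0.35, limma) and 5.99 (adjusted p = 1.29e-05, SE 0.26, limma). Timp1, the gene of a metalloproteinase inhibitor, had log2 fold changes of 4.40 and 4.74.

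Several genes of this list are best known from the acute-phase response of the liver, and their values varied widely. A2m, which encodes alpha-2-macroglobulin, had log2 fold changes of 8.32 and 6.11, Fgb 5.19 and 3.86, Fgg 3.88 and 3.79, and Lbp 3.16 and 3.96. Fgb and Fgg encode fibrinogen chains, and Lbp encodes the lipopolysaccharide-binding protein. Reg3b, a gene of the list that encodes a secreted lectin and is not meant as a liver gene, had 3.73 and 5.75. Over the alternatives A2m ranged from 5.14 to 10.9 after adenine and from 3.02 to 9.06 after UUO. Reg3b ranged from 1.43 to 6.06 and from 2.91 to 7.90. The call of Fgg as a DEG was lost in 1 of 16 alternatives in each model (1.99 after adenine and 1.61 after UUO). Reg3b lost its call after adenine in 1 of 15 alternatives (1.43). Fga, the gene of the remaining fibrinogen chain, was no DEG at 1.49 and 0.50, nor was Hp, the gene of haptoglobin, at 1.02 and 1.07, and Hamp, the gene of hepcidin, was at most 0.135 FPKM in every sample and was not tested. These 3 were named after their values were seen. FPKM of hepatocyte markers (Alb, Apoa1, Ttr and Cps1) summed to 0.483 to 0.810 in control, 0.303 to 2.18 in adenine, 0.188 to 0.331 in sham and 0.764 to 0.958 in UUO samples. Alb reached 1.49 FPKM in the first adenine sample and at most 0.166 in any other sample. Apoa1 was at 0.0565, 0.331 and 0.212 FPKM in the sham and 0.783, 0.824 and 0.632 in the UUO samples. Its log2 fold change was 1.61 (adjusted p = 0.0144, SE 0.44, limma). Apoa1 reached the minimum FPKM only through the UUO samples, so it had to differ to be tested. Ttr and Cps1 were at most 0.179 FPKM in every sample. The part of such transcripts in these changes was not tested.

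Signaling and transcription factor genes of the list were also among the DEGs. Myc had log2 fold changes of 2.86 and 3.01, Icam1, the gene of an adhesion molecule for leukocytes, 3.33 and 2.95, Bcl3 2.26 and 3.19, and Pim1, the gene of a kinase, 2.69 and 2.15. Junb was a DEG in the UUO model alone, at 2.04 against 1.82 in the adenine model, and the difference between the models was not called. Bcl3 in the adenine model (1.89 to 1.97) and Pim1 (1.36 to 1.71) and Junb (1.44 to 1.98) in the UUO model were no DEGs with median-of-ratios scaling, quantile normalization or a pseudocount of 1. Junb also lost its call without the second sham, the third sham or the first UUO sample (1.93, 1.79 and 1.87). Fos was called in the adenine model at 2.49 (adjusted p = 0.0417, SE 0.86, limma) and lost this call under 10 of 16 alternatives. Pim3, a relative of Pim1, was the downregulated DEG of both models, at -3.04 (adjusted p = 0.000334, SE 0.32, limma) and -2.24 (adjusted p = 0.000148, SE 0.22, limma). Cebpd, which encodes a C/EBP transcription factor, was a DEG in the UUO model at 2.41 (adjusted p = 0.000678, SE 0.33, limma), but not with median-of-ratios scaling (1.82) or quantile normalization (1.71). Its log2 fold change in the adenine model was 0.41 (adjusted p = 0.110, SE 0.19, limma).

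Marker lists of cell types changed in differing directions, and not every list changed in both models. For the counts below, 10.7% of all tested entries were upregulated DEGs after adenine and 13.2% after UUO. Downregulated DEGs were 5.03% and 4.21%. The 9 kidney markers were listed in all samples and their FPKM summed to 2132 to 3192 in control, 267.8 to 486 in adenine, 3312 to 3977 in sham and 255 to 397 in UUO samples, with 3 and 6 of 9 downregulated DEGs. All 9 macrophage markers were upregulated DEGs in both models, and their sum was 55.2 to 61.5 in control, 1229.9 to 1684 in adenine, 62.3 to 76.5 in sham and 723 to 1118 in UUO samples. Of 6 neutrophil markers 3 were upregulated DEGs after adenine and 4 after UUO, and Mpo and Elane missed the minimum FPKM in both models. Of 6 T cell markers 3 and 6 were, and of 8 fibroblast markers 4 of 7 tested and 7 of 8. Among the T cell markers after adenine, Cd4 was called at a log2 fold change of 4.31, and the others ranged from 1.49 to 2.23. Of these others Cd3e (2.23) and Cd3g (2.10) were called close to the threshold, and Cd3d (1.66), Cd2 (1.58) and Cd8a (1.49) were not called. The urothelial markers summed to 0.740 to 6.96 in control and 1.07 to 3.89 in adenine samples with 0 of 2 tested called, and to 0.646 to 2.67 in sham and 72.0 to 144.6 in UUO samples with 5 of 5 upregulated. In each model 2 macrophage and 2 neutrophil markers reached the minimum FPKM only through the fibrotic samples, as did 4 urothelial and 1 fibroblast markers in the UUO model, so their counts of DEGs were in part fixed by that minimum. The part of these cell types in the changes of the interleukin 6 family genes was not tested.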

How the data were processed

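Kidney RNA of 12 male rats had been sequenced. The labels put 3 rats in each of 4 groups (control, adenine, sham, UUO), and table columns were matched to them by name. The authors deposited expression as FPKM per gene in 2 tables, 1 for each model and its controls. The submitters' processing notes name cutadapt 1.9, HISAT2 2.0.4, StringTie 1.3.4d, edgeR and DESeq2 without their roles. The genome build and annotation are not given in the sources used here. FPKM holds no read counts, so depth, counting error and detection limits are unknown. The precision of a value is the spread between 3 rats.

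The tables were made separately, with a lowest value of 0 in one and 0.0001 in the other, and each was fitted alone. Values were taken as log2(FPKM + 0.1), and an entry needed 0.5 FPKM or more in 3 of 6 samples. Software was R 4.3.3 with limma 3.58.1 (lmFit, eBayes, trend on) and, outside the fits, scipy 1.17.1, pandas 2.3.3 and numpy 2.4.6 under Python 3.11.15. The added 0.1 understates the change of low genes. Benjamini-Hochberg adjustment ran over all tested entries of a table. The thresholds of a DEG (adjusted p under 0.05, absolute log2 fold change of at least 2) follow the study's methods. To compare the models, the adenine log2 fold change was subtracted from that of UUO and divided by the root of the summed squared standard errors, read as t with the degrees of freedom added up. This was adjusted over all symbols listed once and tested in both tables, and a call needed a difference of at least 2. Genes under the minimum FPKM and ratios of genes were compared by exact permutation, two-sided, 3 samples against 3. The fits were tested on simulated data. Changes were placed there only in entries of higher FPKM, so this test does not cover genes at low levels such as Il6, Il11 and Osm.

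The 10 genes, the pathway lists, the marker lists, the ratios and the motifs were chosen with earlier results of these data known. The 10 genes are all named, and other pathway genes are named where they were a DEG in at least 1 model or encode a receptor subunit (Il11ra1, Lifr, Cntfr) or kinase (Jak1, Jak2, Tyk2) of the pathway. A few genes on these lists are counted but not reported by name. Any other gene is said to be named after its values were seen. Replicate numbers mark different animals, so samples were not paired in the main fits. The correlations of same-numbered samples were -0.12 to -0.05 in the adenine model and 0.05 to 0.11 in the UUO model. Alternatives changed the pseudocount (to 1 or 0.01), the minimum FPKM (none, or 1), the scaling (quantile, median-of-ratios, or an equal FPKM sum in all samples), the eBayes trend (off), the design (replicate number as a block), the fold threshold (none) and the samples (each omitted once).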

Additional observations from a re-analysis of the deposited data

Results flagged for a closer look

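Among the other pathway genes, 5 had log2 fold changes that differed between the models by the test of the difference itself (limma fits, adjusted p under 0.05 and a difference of at least 2). All differences are given as UUO minus adenine. The genes Socs1 and Cebpb are named here after their values were seen.

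Socs2, an inhibitor of cytokine receptors best known from growth hormone signaling, differed by 2.32 (adjusted p = 9.6e-05, SE 0.25, limma). It was higher in all 3 UUO samples than in any sham sample, while the control and adenine samples overlapped. With a pseudocount of 1 the difference was 1.85 and was not called.

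Socs1, an inhibitor of Janus kinases, differed by 2.21 (adjusted p = 0.00419, SE 0.46, limma). FPKM of Socs1 was 0.787, 1.03 and 1.11 in controls and 0.831, 0.555 and 0.760 in the adenine samples, which overlapped. It was 0.284, 0.302 and 0.565 in shams and 1.68, 2.13 and 1.01 in the UUO samples, which did not. The call was lost under quantile normalization (1.93), under median-of-ratios scaling (1.95), when 1 was added in place of 0.1 (1.10) and without the second UUO sample (1.98).

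Cebpb, which encodes a C/EBP transcription factor, differed by 2.60 (adjusted p = 0.000271, SE 0.33, limma) and was called under all 22 alternatives of the difference. Its FPKM was 20.7 ± 3.74 (SD, n = 3) in control and 7.64 ± 1.18 in adenine samples, a log2 fold change of -1.42 (adjusted p = 0.000692, SE 0.18, limma). In sham samples it was 2.86 ± 0.966 and in UUO samples 6.40 ± 1.08, a log2 fold change of 1.18 (adjusted p = 0.00776, SE 0.28, limma). The tables were normalized separately, so the levels of control and sham samples are set side by side and not compared.

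Cebpd, a relative of Cebpb, differed by 2.01 (adjusted p = 0.00269, SE 0.38, limma), at the edge of the threshold, and the call was lost under 8 of 22 alternatives. These were quantile normalization (1.64), median-of-ratios scaling (1.71), equal FPKM sums (1.96), a pseudocount of 1 (1.74), and leaving out the third control (1.85), first adenine (1.90), second sham (1.67) or first UUO sample (1.79).

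A2m, the acute-phase gene, differed by -2.20 (adjusted p = 0.00256, SE 0.42, limma), with the larger rise in the adenine model. A2m was listed at 0.0131, 0.0001 and 0.0001 FPKM in the sham samples, so its log2 fold change depends on the added 0.1. The call was lost with a pseudocount of 0.01 (-1.82, limma adjusted p = 0.0604) and without the third adenine sample (-1.90).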

How the results depend on the processing

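No result changed direction among those called. The number of interleukin 6 family genes called was 5 to 9 in the adenine model and 4 to 8 in the UUO model over 16 alternatives, within 7 to 8 and 6 to 6 with each sample left out. The fit with a replicate block gave 7 and 6 of these genes, 16 and 17 other pathway genes, and 0 family genes that differed between the models, the same numbers as without it, with 2352 and 2609 DEGs in all and 390 symbols that differed. Samples correlated best with their own number in the UUO table and not in the adenine table, which is a hint from the data and not the design. A pseudocount of 1 brought the DEGs over all entries from 2360 and 2613 to 1320 and 1465 and the symbols that differed between the models from 389 to 207, while no filter gave 598. Without a fold threshold there were 8934 and 10606 DEGs, 43 other pathway genes in each model, and 3640 symbols that differed, 2 of them family genes. Differences of genes under the minimum FPKM depended on the pseudocount. With pseudocounts of 1 and 0.01 they were 0.42 and 3.21 for Il11 in the adenine model, and 0.83 and 6.23 for Il6 and 0.62 and 4.72 for Osm in the UUO model. With each sample left out there were 2264 to 2444 and 2534 to 2690 DEGs, 15 to 16 and 16 to 18 other pathway genes, 348 to 442 symbols that differed, and 0 to 0 family genes among them. Depth is unknown, and values below 1 FPKM (Il6, Il11 and Osm) rest on few fragments that cannot be counted here.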

Other observations

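Ciliary neurotrophic factor, encoded by Cntf and named after its values were seen, was measured at 2.30, 11.1 and 4.30 FPKM in controls and 11.5, 17.4 and 16.2 in the adenine samples. The lowest adenine sample was just above the highest control, and the log2 fold change was 1.60 (adjusted p = 0.0361, SE 0.53, limma). Sham samples had 5.55, 4.73 and 2.77 and UUO samples 7.22, 19.2 and 11.9, a log2 fold change of 1.48 (adjusted p = 0.0139, SE 0.40, limma).

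Of the remaining marker lists, B and plasma cell markers summed to 1.56 to 4.46 FPKM in control and 17.3 to 46.7 in adenine samples. Their sum was 1.67 to 4.36 in sham and 20.1 to 69.2 in UUO samples. After adenine 1 and after UUO 2 of 2 tested genes were upregulated DEGs, beside 10.7% and 13.2% of all tested entries. The 2 tested genes were not the same in both models, and 1 of those after UUO reached the minimum FPKM only through the UUO samples. Endothelial markers summed to 70.1 to 78.7 in control and 38.6 to 54.4 in adenine samples. They summed to 71.8 to 94.2 in sham and 126 to 153 in UUO samples, with 0 and 1 of 4 upregulated DEGs. The endothelial markers did not move together after adenine. Emcn was lower at a log2 fold change of -1.79 (adjusted p = 0.000284, SE 0.18, limma), while Cdh5 (0.84) and Tie1 (0.83) were higher. For Kdr the adenine and control samples overlapped. Adrenal markers summed to 0.850 to 2.02 and 0.534 to 0.945 in the adenine model and 0.878 to 1.58 and 0.762 to 1.24 in the UUO model, and skeletal muscle markers to at most 5.91 in any sample.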
